A study of Mus musculus with 108 samples.

Results

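The cytosolic ribosomal protein genes encode the proteins of the small and large subunits of the ribosome. They were followed here in single mouse oocytes that lacked or kept Exosc10, a nuclear exoribonuclease of the RNA exosome. The members were the genes whose symbol is Rps or Rpl followed by a number, with or without a final a, x or y, together with the stalk genes Rplp0, Rplp1 and Rplp2 and with Rpsa. Pseudogenes, S6 kinases, paralogs with other symbols and the ubiquitin fusion gene Rps27a were left out. The rule found 75 of the 55573 genes in the files, 29 of the small subunit and 46 of the large one. The rule used no measured value. A filter on low counts kept 74 of them in the polyA libraries (Rpl36 was left out) and 75 in the RiboMinus libraries.

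Each sample was 1 oocyte, collected at the germinal vesicle (GV) stage, at GV followed by 3 hours of culture outside the body in M2 medium (GV3h), or as a mature egg at metaphase II (MII) dissected from the oviduct. The knockout (cKO) females carried an oocyte-specific knockout of Exosc10, and the other females were labelled as controls. The driver of the deletion, the mouse strain and the ages are not given in the sources used here. PolyA libraries were made from RNA caught on oligo-dT beads. They came from 7 control oocytes of 2 females and 15 cKO oocytes of 2 females at GV, from 8 and 11 oocytes of 3 females each at GV3h, and from 8 and 15 eggs of 3 females each at MII. RiboMinus libraries were primed with random hexamers, without selection for a poly(A) tail. They came from 8 control oocytes of 2 females and 7 cKO oocytes of 2 females at GV, and from 3 control eggs of 1 female and 4 cKO eggs of 2 females at MII. No female gave oocytes to more than 1 group, and the female was the replicate in every test.

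The gene counts per oocyte ranged from 4638718 to 8735914 in polyA libraries and from 12319658 to 62675760 in RiboMinus libraries. Exosc10 was at 43 to 166 CPM (a gene's counts scaled to the library's sum of gene counts) in controls and at 0 to 8.29 CPM in cKO oocytes, and no pair of the 86 libraries held identical counts. The 10 oocyte markers summed to 7240 to 25900 CPM in every library. The 15 granulosa and cumulus markers summed to 69.8 to 205 CPM, with Nr5a2, Cyp19a1 and Kitl the highest by median in every group, and the other 12 summed to 0 to 54.2 CPM (median 5.2 CPM). Among these Amh reached 27.7 CPM and was at 0 in 57 libraries, Fshr reached 13.9 CPM and was at 0 in 38, and Foxl2 reached 2.13 CPM and was at 0 in 66. The deepest library, from the 1st oocyte of cKO female V1166 (RiboMinus, MII), stood apart. It held the immune genes Lyz2 and Ptprc at 36.1 and 13.8 CPM, against at most 1.07 and 0.496 CPM in the other RiboMinus libraries. Their part in the results was not tested, and the count of RiboMinus MII calls is also given without that library.

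Ribosomal protein mRNAs are among the most translated mRNAs of growing cells, and many begin with a C followed by a run of pyrimidines at the cap (the 5′ terminal oligopyrimidine, or TOP, motif), through which mTOR signalling and the RNA-binding protein Larp1 set their translation and stability. A growing oocyte builds up ribosomes and mRNAs and then stops transcription before it matures. During meiotic maturation the poly(A) tails of many stored mRNAs shorten, while mRNAs with a cytoplasmic polyadenylation element (CPE) near the 3′ end can have theirs extended. Oligo-dT capture depends on the tail, so in the polyA libraries alone fewer molecules and shorter tails cannot be told apart.

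Windows from the 3′ untranslated regions are shown because the maturation changes below are given for members with and without a CPE, searched as TTTTAT or TTTTAAT on the sense strand of the 3′ untranslated region (GENCODE, build GRCm38). The windows hold 30 bases and end 0 to 12 bases before the annotated 3′ end, except that of Rpl15, which ends 138 bases before it. Capitals mark a CPE and a poly(A) signal hexamer (AATAAA or ATTAAA), which overlap in Rpl31 and Rpl15. The first 5 members have a CPE and the last 3 have none. The windows are Rps2 chr17:24721888-24721917 (+), Rpl13a chr7:45125563-45125592 (-), Rpl31 chr1:39371880-39371909 (+), Rpl15 chr14:18267961-18267990 (-), Rpl32 chr6:115805513-115805542 (-), Rps15 chr10:80294085-80294114 (+), Rps19 chr7:24889777-24889806 (+) and Rps3 chr7:99477896-99477925 (-).
Rps2: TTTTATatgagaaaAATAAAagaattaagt
Rpl13a: TTTTATgtgctAATAAAttatttgacttaa
Rpl31: TTTTATTAAAaaccttgaggacaaacatta
Rpl15: TTTTATTAAAttggttttcctttggagatt
Rpl32: TTTTATgtttaAATAAAatcacaaaacctg
Rps15: ggccAATAAAgactggttttggtccctgga
Rps19: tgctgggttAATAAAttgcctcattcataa
Rps3: aagtgtgcaaccttcatctggttgATTAAA
A CPE was found in 15 of the 75 members and in 54.4% of the 20754 protein-coding genes with an annotated 3′ untranslated region. The median length of that region was 89 bases in the members and 847 bases over all these genes. Only 1 annotated transcript per gene was searched, chosen by its annotation rank and, among equals, by length. Its region ran from 46 bases (Rps2) to 4728 bases (Rps15a) in members with a CPE. In members without one it ran from 28 bases (Rps12) to 1079 bases (Rpl21). Which transcripts the oocytes used was not tested.

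The 5′ ends are shown because they carry the motif that the family is known for. RefSeq promoter entries (GRCm38.p6) matched 56 of the 75 members. A C followed by 4 or more pyrimidines, on the sense strand, began at the annotated start in 13 of the 56 (23.2%) and in 3.01% of 27025 genes. Within 5 bases of the start it was found in 27 members (48.2%) and in 21.2% of genes. The windows below run from 10 bases before the annotated start to 20 bases from it, with the pyrimidine run in capitals: Rps6 chr4:86857348-86857377 (-), Rps15a chr7:118116128-118116157 (-), Rpl15 chr14:18270967-18270996 (-), Rplp2 chr7:141447641-141447670 (+) and Rpl35 chr2:39005112-39005141 (-).
Rps6: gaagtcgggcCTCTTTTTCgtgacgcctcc
Rps15a: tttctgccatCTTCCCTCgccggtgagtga
Rpl15: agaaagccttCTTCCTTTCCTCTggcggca
Rplp2: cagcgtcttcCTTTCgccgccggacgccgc
Rpl35: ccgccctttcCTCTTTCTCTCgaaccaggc
In polyA controls Rps6 and Rpl35 fell at maturation, and Rps15a, Rpl15 and Rplp2 did not pass as lower, although Rplp2 did with library totals as the scale. The other members with the run at the annotated start, Rpl14, Rpl28, Rpl35a, Rpl38, Rps10, Rps18, Rps21 and Rps27, also fell. All of the 13 but Rps15a, Rpl15 and Rplp2 therefore fell, against 25.7% of all genes.

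In GV oocytes the members took a small share of the library, and in polyA libraries that share was several times smaller in MII eggs. Among polyA controls, the members held 0.229%, 0.259% and 0.325% of the gene counts (lowest, median and highest oocyte) at GV and 0.217%, 0.238% and 0.286% at GV3h. In control MII eggs the share was 0.0375%, 0.0428% and 0.0471%, so every egg lay below every GV and GV3h oocyte. In RiboMinus controls the share was 0.116%, 0.19% and 0.211% at GV, and 0.248%, 0.283% and 0.308% in the 3 MII eggs of 1 female. Here the eggs lay above all GV oocytes. In polyA libraries of cKO oocytes the GV share was 0.202%, 0.354% and 0.483%, the GV3h share was 0.287%, 0.344% and 0.468%, and the share in eggs was 0.0495%, 0.062% and 0.0771%. Every cKO oocyte at GV3h and every cKO egg lay above every control of its stage, while the groups overlapped at GV. The GV oocytes split by female in both groups, with means of 0.249% in V857 and 0.390% in V888 among cKO and of 0.233% in V856 and 0.297% in V889 among control oocytes. In RiboMinus cKO libraries the share was 0.145%, 0.159% and 0.191% at GV and 0.102%, 0.159% and 0.199% at MII, and no cKO egg reached the lowest control egg. The cKO eggs also split by female, with means of 0.118% in V1166 and 0.192% in V1167.

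**Figure D1:**
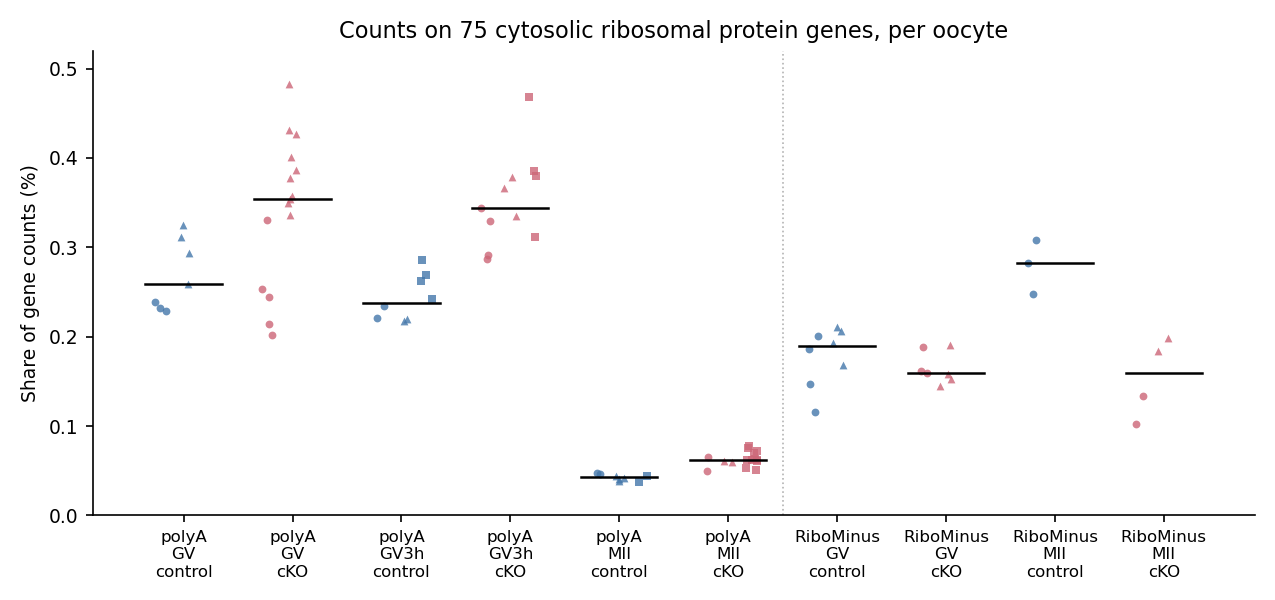
Percent of each library's gene counts that fell on the 75 members (y axis) in the 10 groups (x axis); each point is 1 oocyte, its shape marks the female within the group, blue is control, red is Exosc10 cKO, and the black line is the group median. The polyA MII eggs lie between 0.0375% and 0.0771%, below all other oocytes, while the 3 RiboMinus control eggs lie between 0.248% and 0.308%.

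Levels differed widely among the members. Levels were divided by the length of 1 annotated transcript per gene, so their order depends on the transcript chosen. High mean levels in polyA GV controls included those of Rps14 (225 CPM per kb) and Rplp1 (206 CPM per kb), an acidic stalk protein. The lowest were those of Rpl9 (0.581 CPM per kb), Rpl36 (0.614 CPM per kb) and Rpl3 (0.737 CPM per kb), a protein next to the peptidyl transferase centre. Ribosomal protein genes have many processed pseudogene copies, and how the authors treated reads with several positions is not given in the sources used here. The deposited count of such reads is 0 in every library. In the transcripts of the members a median of 43.9% of all 50-base stretches also occurred in another gene's transcript or in a pseudogene, and 30 members shared 50% or more of theirs. Rpl9, Rpl36 and Rpl3 shared 93.3%, 81.1% and 85.6% of theirs, so the levels of the low members are uncertain. Members with under 50% and with 50% or more of shared sequence had median changes of -3.43 and -3.32 (log2) from GV to MII in polyA controls.

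Most ribosomal protein mRNAs fell at maturation in the polyA libraries of control oocytes. From GV to MII, 63 of the 74 members tested fell and 1 rose (edgeR's quasi-likelihood test on counts summed per female, adjusted p under 0.05 over all genes). Over all 19242 genes 25.7% fell and 16.8% rose. The median log2 fold change of the members was -3.36, or -3.21 with the members that had no count in eggs set at their bound, against -0.26 over all genes. Both subunits took part, with 26 of 29 small-subunit genes (median -3.51) and 37 of 45 large-subunit genes (median -3.18) lower. For 54 members every egg lay below every GV oocyte, which was the case for 15.4% of all genes. Library measures also differed without overlap between control GV oocytes and eggs. Genes detected numbered 18098 to 19626 and 13699 to 16389, no-feature reads were 9.88% to 11.2% and 5.9% to 6.68% of reads, and mitochondrial genes held 0.238% to 0.417% and 0.721% to 1.24% of gene counts. The 5 stroma and endothelium markers summed to 63.4 to 73.8 CPM at GV and 92.8 to 196 CPM in eggs. The part of these measures in the result was not tested.

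Rps15, a small-subunit protein near the decoding centre, was at 19.6, 26 and 30.2 CPM in the 7 control GV oocytes and at 0, 0.335 and 1.14 CPM in the 8 eggs. The ranges lay far apart, and the fitted change was -6.13 ± 0.56 on the log2 scale (SE; edgeR adjusted p = 2.82e-07). Rps19, which is needed to mature the small-subunit rRNA and is mutated in Diamond-Blackfan anaemia, went from 18.4, 23.8 and 26 CPM to 0, 0.164 and 0.808 CPM (-6.26 ± 0.42, adjusted p = 1.16e-08). Some members were almost absent from the polyA libraries of control eggs. Rpl24 had 121 counts over the control GV oocytes and 1 over the control eggs, a 171-fold lower rate with a 95% counting interval of 30.1 to 6800, while the RiboMinus libraries held it at 18.9, 26.6 and 29.9 CPM in the 3 control eggs. Rpl12, a protein at the base of the stalk, had 62 counts and 2, a 43.7-fold lower rate (11.6 to 369). Rpl9 had 19 counts and 0, at least 8.94-fold lower against 3 counts over the group, and Rps27 had 13 and 0, at least 6.12-fold lower. Rpl9 and Rps27 share over 90% of their 50-base stretches with copies elsewhere, Rpl24 shares 81.7% and Rpl12 49.0%, and Rpl24 also overlaps Gm28037 on the same strand.

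Of the genes of the stalk, which recruits translation factors, 2 of 3 fell. Rplp0, the scaffold of the stalk, was at 86.8, 206 and 242 CPM at GV and at 8.28, 12.3 and 19.9 CPM at MII (-3.56 ± 0.45, adjusted p = 9.7e-06). The low GV oocytes came from 1 female, V856, whose mean was 91.2 CPM against 227 CPM in V889. Rplp1 was at 81.4, 101 and 130 CPM and then at 3.5, 5.6 and 22.9 CPM (-3.69 ± 0.31, adjusted p = 1.07e-07). Its partner Rplp2, which binds the same scaffold, was at 26.7, 33.4 and 39.3 CPM and then at 13.9, 20.4 and 26.8 CPM, with a change of -0.56 ± 0.23 that did not pass (adjusted p = 0.0622), although it passed with library totals as the scale. The Rplp2 ranges just overlapped, unlike those of its partners.

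The proteins of the 5S ribonucleoprotein, which also bind Mdm2, both fell. Rpl5 went from 6.67, 13.2 and 17.2 CPM to 0, 1.15 and 2.95 CPM (-3.09 ± 0.38, adjusted p = 6.72e-06) and Rpl11 from 5.33, 6.5 and 9.5 CPM to 0.699, 0.929 and 2.25 CPM (-2.63 ± 0.37, adjusted p = 3.02e-05). Neither gene's eggs reached the lowest GV oocyte. Rps6, the protein phosphorylated by S6 kinase, had few counts, 79 over the GV oocytes and 12 over the eggs, and changed by -2.95 ± 0.78 (adjusted p = 0.00582). Rpsa, the laminin receptor homolog at the back of the small subunit, changed by -4.74 ± 0.53 (adjusted p = 2.76e-06), and Rps4x by -3.4 ± 0.3 (adjusted p = 2.14e-07). Rpl10, which closes the last step of large-subunit assembly, changed by -2.26 ± 0.46 (adjusted p = 0.000845), and Rpl41, the smallest ribosomal protein, by -3.51 ± 0.26 (adjusted p = 2.91e-08). Rpl3 had 45 and 15 counts and a change of -1.67 ± 0.83 that did not pass (adjusted p = 0.122).

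Rpl15 was the 1 member that rose. This large-subunit protein was at 20, 27.4 and 35.4 CPM in control GV oocytes and at 28.4, 44.5 and 65.2 CPM in control eggs, with overlapping ranges (0.71 ± 0.24, adjusted p = 0.0229). The call was lost without female V836, V853 or V856 and with the compared groups alone, and with library totals as the scale 0 members rose. Rps15a was at 27.2, 42.3 and 54.3 CPM and then at 41.8, 53.3 and 78.6 CPM (0.52 ± 0.27, adjusted p = 0.131). Rpl4, which lines the peptide exit tunnel, was at 154, 179 and 189 CPM and then at 99.2, 135 and 187 CPM (-0.29 ± 0.2, adjusted p = 0.268). In these 3 genes the ranges of eggs and GV oocytes overlapped. Rpl22, Rps2, Rpl37a, Rpl13a, Rpl31 and Rps12 also did not pass, with changes of -0.26, -0.45, -0.58, -0.38, -0.76 and -2.02.

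Of the 10 members that neither rose nor fell by the test, 7 have a CPE, and so does Rpl15. This depends on the scaling: with library totals 71 members fell, and the 3 that did not were Rpl15, Rps15a and Rpl3. The class of a member also rests on the 1 annotated transcript that was searched, and some of these have long 3′ untranslated regions. Among the 15 members with a CPE, 7 fell, 1 rose and 7 did not pass, with a median change of -0.76. Among the 59 tested members without one, 56 fell and 3 did not pass (Rpl3, Rpl4 and Rps12), with a median of -3.51. Over all protein-coding genes 16.6% of 8384 genes with a CPE and 42.3% of 6177 without one fell. The difference between genes with and without a CPE was compared after seeing values and was not tested. Among genes with a 3′ untranslated region of up to 300 bases, which is the usual length for a ribosomal protein gene, these shares were 22.8% of 508 and 49.7% of 2405. A CPE did not go with a steady level in every member. Rps20 changed by -5.33 and Rpsa by -4.74 with matches 254 and 682 bases from the 3′ end, and Rpl32 by -2.11 and Rpl5 by -3.09 with matches 25 and 20 bases from it. Members that did not fall also had matches far from the end, at 846 bases in Rps15a, 244 in Rplp2, 162 in Rpl15 and 132 in Rpl37a. Rps2 and Rpl13a, whose windows resemble that of Rpl32 above, changed by -0.45 and -0.38. In RiboMinus controls the members with and without a CPE had median changes of 0.36 and 0.44.

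**Figure D2:**
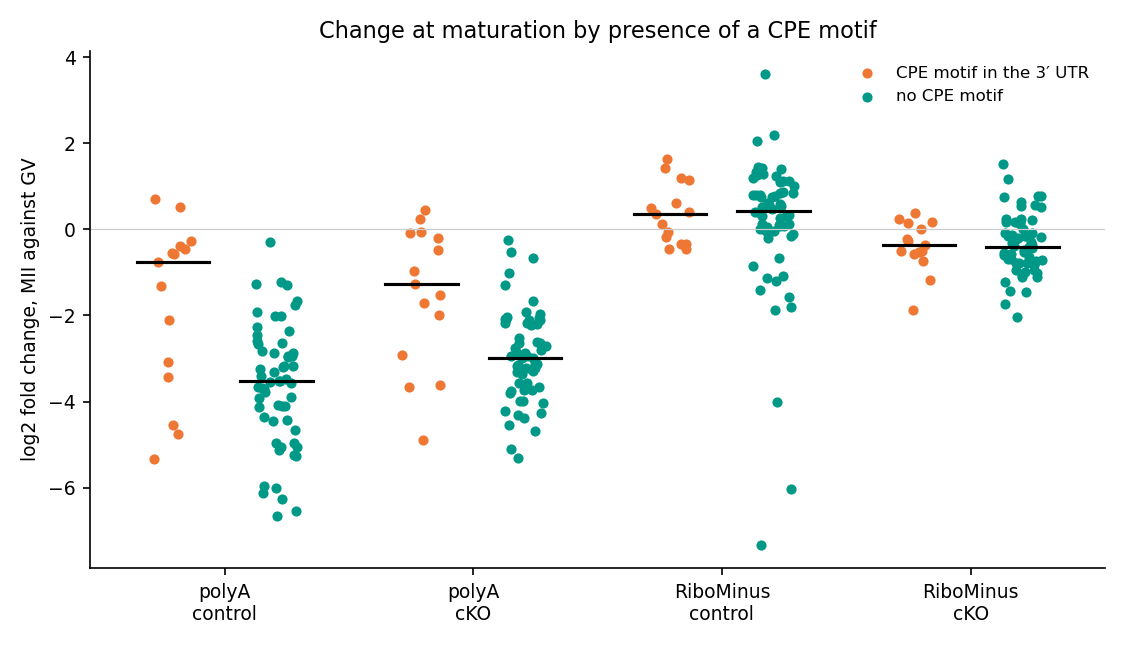
Fitted log2 fold change from GV to MII (y axis) of each member with a CPE motif in its 3′ untranslated region (orange) and without one (green), in polyA and RiboMinus libraries of control and cKO oocytes (x axis); each point is 1 gene and the black line is the median. In polyA controls the medians were -0.76 and -3.51, while in RiboMinus controls they were 0.36 and 0.44; the lowest points in RiboMinus controls, Rpl9, Rps27 and Rpl3, have at most 4 counts over the eggs.

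Libraries made without poly(A) selection showed no such loss. In RiboMinus controls 0 of 75 members passed in either direction from GV to MII, and only 2 of 25425 genes did (0.00787% higher, 0.0% lower). The median change of the members was 0.40, against -0.16 over all genes, and 15 members had an unadjusted p under 0.05. DESeq2 called 8 members (7 higher), each oocyte taken as a replicate gave 22, no filter gave 7 and a fit of the compared groups alone gave 28. The MII group was 1 female, assumed to vary like the others. For 17 members all 3 eggs lay above all 8 GV oocytes and for 3 they lay below, against 7.59% and 7.65% of all genes. Genes detected numbered 20395 to 21790 in these GV oocytes and 17703 to 18004 in the eggs, and the 5 stroma and endothelium markers summed to 52.7 to 73.8 and to 24.8 to 30.3 CPM, both without overlap. The 10 oocyte markers summed to 7240 to 11600 CPM at GV and to 12500 to 13400 CPM in the eggs, also apart. What part these measures had in the result was not tested.

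Rps15 was at 30.6, 38.8 and 50 CPM in the RiboMinus control GV oocytes and its 3 eggs lay between 38 and 54.3 CPM (0.3 ± 0.43, adjusted p = 0.771). Rplp0 was at 37.8, 59 and 87.1 CPM, below its 3 eggs at 113 to 127 CPM (1.01 ± 0.46, adjusted p = 0.35). Rps24, a small-subunit protein, was at 34.6, 58.6 and 78.5 CPM, below its eggs at 155 to 211 CPM (1.64 ± 0.26, adjusted p = 0.0861). In none of these genes did the eggs fall below the GV oocytes, whereas all of them fell in polyA.

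The difference between the library types was tested in 1 fit over all 23 females, scaled across both types. In controls, the change from GV to MII was lower in polyA than in RiboMinus libraries for 56 of 75 members and higher for 0, with a median difference of -3.71 log2 units. Over 24777 genes 11.9% were lower and 10.9% higher, and the median was 0. Rps15 differed by -6.28 ± 0.76 (adjusted p = 2.9e-06), Rpl39 by -5.95 ± 0.53 (adjusted p = 8.08e-08) and Rps3 by -4.27 ± 0.36 (adjusted p = 3.12e-08). Rpl24 and Rpl12 also had low adjusted p (4.46e-06 and 0.000314) but 1 and 2 counts in polyA eggs. Rpl15, Rps15a and Rplp2 had differences of 1.05 ± 0.42, 0.27 ± 0.49 and 0.07 ± 0.44, and none passed (adjusted p = 0.0784, 0.827 and 1).

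In cKO oocytes 42 of 75 members had a lower change in polyA than in RiboMinus libraries and 0 a higher one, against 9.17% and 11.6% of all genes. The median difference was -2.18, and -0.24 over all genes. Rps15 differed by -4.09 ± 0.67 (adjusted p = 0.000137), Rpl26 by -4.1 ± 0.5 (adjusted p = 6.76e-06) and Rpl24 by -5.52 ± 0.83 (adjusted p = 6.18e-05). Whether the genotypes differ in this difference was not tested.

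**Figure D3:**
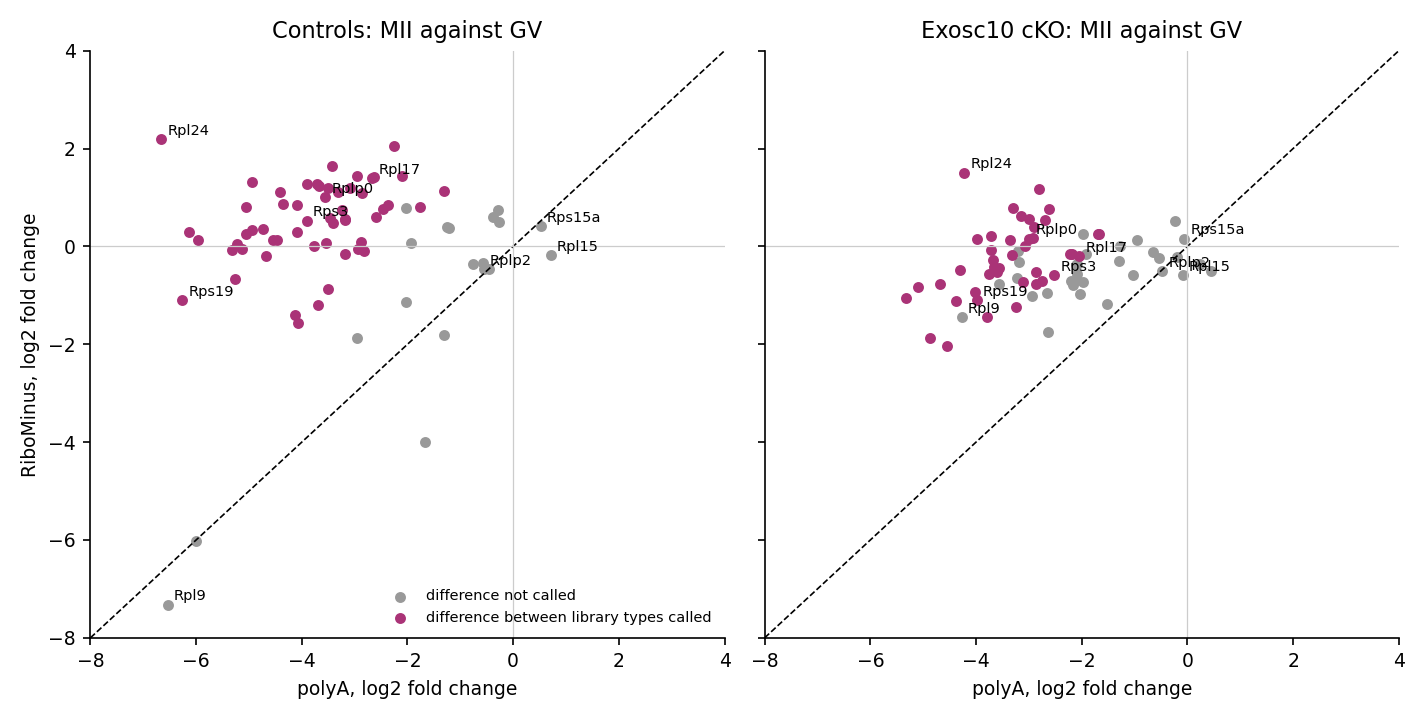
Fitted log2 fold change from GV to MII in polyA (x axis) and RiboMinus libraries (y axis) for each member tested in both, in control (left) and cKO oocytes (right); purple marks genes whose changes differ between library types at adjusted p under 0.05, and the dashed line marks equal change. Most points lie left of the dashed line near 0 on the y axis, with medians of -3.36 (polyA) and 0.40 (RiboMinus) in controls and -2.86 and -0.38 in cKO oocytes; Rpl9 and Rps27, the lowest on the y axis in controls, have 0 counts in the control eggs of both library types.

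The genotypes were compared at each stage. These comparisons share their groups with the maturation comparisons, so the values of the 2 kinds are not independent. At GV, 1 member was higher and 1 lower in cKO than in control polyA libraries, against 3.47% and 3.91% of all genes (7.38% in either direction). In both genes the oocyte ranges of the genotypes were apart, as in 2.17% (higher) and 2.73% (lower) of all genes. The median log2 fold change of the members was 0.18, and 0.08 over all genes. Genes detected numbered 18098 to 19626 in control and 20149 to 21753 in cKO oocytes, without overlap, and their part in the result was not tested. Rps3 was the higher gene and Rpl17 the lower one, and both are described across the stages further on. With the compared groups alone 0 members passed. Rps3 did not pass without female V856, V857, V888, V889, V946 or V982, and the count of calls was 1 without V856, V889, V946 or V982.

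At GV3h more members were higher in cKO oocytes. Of 74 members 14 were higher and 1 was lower, against 12.5% and 12.7% of all genes, with a median of 0.55 (0.07 over all genes). For 12 members every cKO oocyte lay above every control oocyte, against 4.98% of all genes. The number of genes detected also did not overlap, at 18529 to 19290 in control and 20933 to 22147 in cKO oocytes, and its part in the result was not tested. Rpl27, a large-subunit protein, was at 4.02, 6.11 and 11.5 CPM in the 8 controls and at 9.23, 15 and 29.1 CPM in the 11 cKO oocytes (1.24 ± 0.37, adjusted p = 0.0235). Rpl35a was at 6.7, 10.2 and 15.9 CPM and at 17.4, 22.8 and 41 CPM (1.19 ± 0.29, adjusted p = 0.00702). Rpl26, known for binding the p53 mRNA, was at 18.8, 20.9 and 29.3 CPM and at 29.4, 46.2 and 64.3 CPM (1.01 ± 0.27, adjusted p = 0.0128). The ranges of Rpl35a and Rpl26 did not overlap and those of Rpl27 did. Rpl15 was at 18.9, 26.6 and 32.7 CPM and at 47.4, 57.8 and 81.5 CPM, also without overlap (1.06 ± 0.21, adjusted p = 0.00185). The count of calls fell to 4 without female V982 or V993 and to 5 without V951, while DESeq2 called 27 members and library totals 32.

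At MII, 21 of 74 members were higher in cKO than in control polyA libraries and 2 were lower, against 11.9% and 6.99% of all genes, with a median of 0.68 (0.12 over all genes). Of the small-subunit genes 8 rose and 1 fell, and of the large-subunit genes 13 rose and 1 fell. For 4 members every cKO egg lay above every control egg, against 1.57% of all genes. Genes detected numbered 13699 to 16389 in control and 16383 to 18025 in cKO eggs, with ranges that barely met, and their part in the result was not tested. A fit of the MII groups alone called 9 members.

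Rps19 was at 0, 0.164 and 0.808 CPM in the 8 control eggs and at 0, 1.29 and 3.31 CPM in the 15 cKO eggs, so the groups overlapped at their low ends (2.43 ± 0.41, adjusted p = 0.00104). Rps26, which lies at the mRNA exit channel, was at 0.311, 1.53 and 2.67 CPM in controls and at 2.69, 5.27 and 8.09 CPM in cKO eggs (1.98 ± 0.35, adjusted p = 0.00134). Its ranges were just apart. Rpl34 was at 7.76, 10.9 and 14.4 CPM and at 24.1, 37 and 47.3 CPM (1.63 ± 0.2, adjusted p = 0.000115), and Rps2 at 19.4, 30.2 and 37 CPM and at 52.3, 89.2 and 131 CPM (1.57 ± 0.21, adjusted p = 0.000184). Both pairs of ranges were apart. Rpl10 was at 0, 0.593 and 1.39 CPM and at 0.491, 1.9 and 3.88 CPM (1.88 ± 0.43, adjusted p = 0.00749). Rpl12 had 2 counts over the control eggs and 37 over the cKO eggs, a 9.54-fold higher rate with a 95% counting interval of 2.46 to 81.7.

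By role, the stalk gene Rplp1 was higher in cKO eggs (1.62 ± 0.28, adjusted p = 0.00108), while Rplp0 and Rplp2 had values of 0.71 ± 0.41 and -0.05 ± 0.21 that did not pass (adjusted p = 0.238 and 0.9). Rpl5 was higher (1.13 ± 0.35, adjusted p = 0.0354), and its partner Rpl11 had 0.73 ± 0.35 (adjusted p = 0.157). Rpsa (1.88 ± 0.54, adjusted p = 0.0234) and Rpl41 (1.6 ± 0.23, adjusted p = 0.000372) were higher. Rps6, Rps4x and Rpl3 had values of 0.14, 0.33 and -0.68 that did not pass.

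Rps16, a small-subunit protein at the decoding centre, was the gene besides Rpl17 that fell in cKO eggs. It was at 1.16, 2.18 and 3.81 CPM in control eggs and at 0.143, 0.809 and 1.74 CPM in cKO eggs, with overlap (-1.4 ± 0.41, adjusted p = 0.0265). At GV and GV3h its values were 0.02 ± 0.45 and 0.56 ± 0.37 (adjusted p = 0.987 and 0.293). The difference between MII and GV was -1.42 ± 0.61 and did not pass (adjusted p = 0.258).

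**Figure D4:**
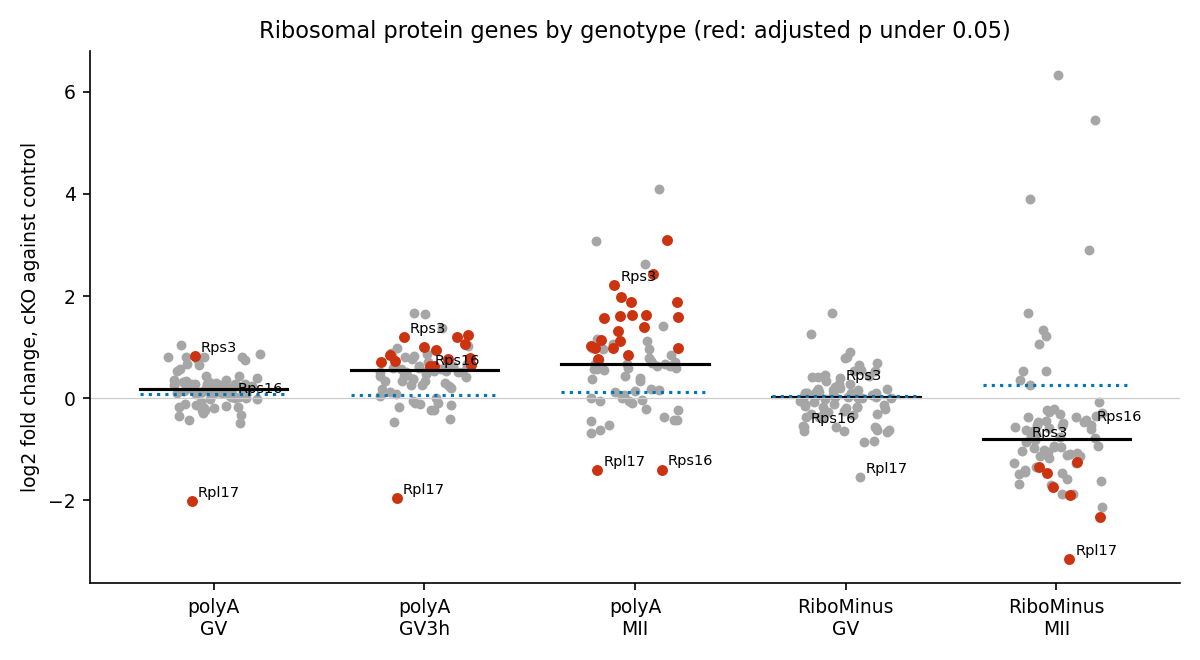
Fitted log2 fold change, cKO against control (y axis), of each member at the 5 combinations of library type and stage (x axis); each point is 1 gene, red points have an adjusted p under 0.05, black lines are member medians and blue dotted lines the medians of all genes. The polyA medians are 0.18 (GV), 0.55 (GV3h) and 0.68 (MII), and the RiboMinus medians are 0.03 and -0.79; the grey points above 2 are genes with at most 4 counts over all control eggs, whose fitted values depend on the prior count.

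Rps3 was higher in cKO polyA libraries at all 3 stages. It encodes a small-subunit protein at the mRNA entry, which also has a role in DNA repair. In GV oocytes it was at 41.7, 48 and 56.2 CPM in controls and at 66.3, 92.5 and 118 CPM in cKO (0.83 ± 0.23, adjusted p = 0.0367). At GV3h it was at 35, 40.8 and 53.2 CPM and at 80.9, 95.9 and 115 CPM (1.2 ± 0.19, adjusted p = 0.000416). In eggs it was at 0.991, 2.62 and 5.49 CPM and at 5.07, 13.5 and 19.5 CPM (2.22 ± 0.21, adjusted p = 1.17e-05). The groups did not overlap at GV and GV3h and overlapped slightly at MII. RiboMinus libraries gave 38.8, 57.6 and 69.2 CPM in control and 50.8, 70.2 and 79.5 CPM in cKO GV oocytes (0.27 ± 0.24, adjusted p = 0.645). In RiboMinus eggs Rps3 was at 101, 61.4 and 78.1 CPM in the 3 controls and at 41.3, 85.7, 40.4 and 40.2 CPM in the 4 cKO eggs (-0.85 ± 0.29, adjusted p = 0.0994). The cKO egg at 85.7 CPM was the 2nd of female V1166. Only 2.96% of the transcript's 50-base stretches are shared with other genes, and 2 small nucleolar RNA (snoRNA) genes lie inside it.

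Rpl17 was lower in cKO polyA libraries at all 3 stages, the 1 member called lower at GV and GV3h and 1 of 2 called lower at MII. It encodes a large-subunit protein at the peptide exit, and 3 snoRNA genes lie inside it. In GV oocytes it was at 122, 159 and 197 CPM in controls and at 25.3, 38.2 and 69.8 CPM in cKO (-2.02 ± 0.23, adjusted p = 0.000821). At GV3h it was at 92.5, 137 and 189 CPM and at 17.4, 38.6 and 50.3 CPM (-1.95 ± 0.19, adjusted p = 3.74e-05). In eggs it was at 14.2, 24.3 and 29 CPM and at 4.65, 8.41 and 18.9 CPM (-1.41 ± 0.19, adjusted p = 0.000212). The groups lay apart at GV and GV3h and overlapped at MII.

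RiboMinus libraries gave 95.1, 132 and 172 CPM of Rpl17 in the 8 control GV oocytes. Of the 7 cKO GV oocytes, 5 were at 13 to 21.8 CPM and the other two, both from female V1126, were at 124 and 128 CPM, within the control range. The change was -1.54 ± 0.62 (adjusted p = 0.305). Without V1126 it was -3.11, with 1 cKO female left at GV. In eggs Rpl17 was at 391, 376 and 318 CPM in the 3 controls and at 56.7, 54.2, 28.6 and 28.4 CPM in the 4 cKO eggs, with a wide gap (-3.15 ± 0.72, adjusted p = 0.0383). The call was lost without any of the females V1132, V1133, V1166 and V1167, with an adjusted p of at most 0.0813 and changes between -3.71 and -2.74. Without the library that stood apart the adjusted p was 0.0486.

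In RiboMinus libraries no member was called higher in cKO oocytes. At GV 0 of 75 members passed, against 0.0275% of all genes higher and 0.00393% lower. The oocyte ranges were apart for 0 members, against 0.751% of all genes higher and 0.853% lower. The median was 0.03 (0.04 over all genes), 3 members had an unadjusted p under 0.05, DESeq2 called 0, and each oocyte taken as a replicate gave 4. At MII 7 of 75 members were lower and 0 higher, against 3.69% and 3.61% of all genes (7.3% in either direction), with a median of -0.79, while the median of all genes was 0.25. For 23 members every cKO egg lay below every control egg, which was the case for 12.0% of all genes. The control eggs are from 1 female. Reads assigned to no annotated feature made up 11.2% to 12.0% of the reads in these control eggs and 8.43% to 9.56% in the cKO eggs, and 17703 to 18004 genes were detected against 19957 to 23488. Gene counts per library were 16220993 to 20447150 in these control eggs and 20678209 to 62675760 in the cKO eggs. The part of these library measures in the result was not tested. The 15 granulosa and cumulus markers summed to 152 to 169 CPM in these control eggs and to 71.9 to 108 CPM in the cKO eggs, mostly through Nr5a2 (medians of 128 and 63.3 CPM), while Fshr and Cyp11a1 had medians of 0 in control and of 1.49 and 1.81 CPM in cKO eggs. The 5 stroma and endothelium markers moved the other way, with sums of 24.8 to 30.3 CPM in control eggs and 84.6 to 115 CPM in cKO eggs, mostly through Pecam1 (medians of 26.8 and 84.3 CPM), with Col1a1 at 0 and 6.34 CPM. Foxl2, Fst and Hba-a1 had medians of 0 in both groups. The 10 oocyte markers summed to 12500 to 13400 CPM in control eggs and to 8110 to 11200 CPM in cKO eggs. The part of these markers in the result was not tested. The 7 calls became 2 (Rpl17 and Rpl35) without the library that stood apart, with a median of -0.98. They became 0 without female V1132 or V1133, 15 with DESeq2 and 3 with library totals. The count rose without V1167, but that leaves 1 female in each group compared, and the spread comes from the GV females.

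Rpl35, a protein at the peptide exit, was at 21.3, 41.9 and 49.6 CPM in the RiboMinus control eggs and at 5.46 to 11.9 CPM in the 4 cKO eggs (-2.32 ± 0.45, adjusted p = 0.0261). Rps15 was at 38 to 54.3 CPM and at 8.35 to 20 CPM (-1.9 ± 0.42, adjusted p = 0.0366). Rpl23 was at 19 to 41.5 CPM and at 6.06 to 12.4 CPM (-1.75 ± 0.44, adjusted p = 0.0482). Rpl32 was at 205, 261 and 349 CPM and at 66.8 to 143 CPM (-1.47 ± 0.34, adjusted p = 0.0382). Rps7 and Rps24 were also lower, with changes of -1.35 ± 0.32 and -1.25 ± 0.26 (adjusted p = 0.0427 and 0.0305). In each of these genes the groups of eggs lay apart. Of the 7, Rpl17 alone was also lower in polyA eggs. The other 6 had polyA values of 0.6 to 0.98 that did not pass.

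The 3 hours of culture changed no member by the test. GV3h was compared with GV in polyA libraries, and 0 of 74 members and 0 of 19242 genes (0.0%) passed in either genotype. DESeq2 and the fit with each oocyte as a replicate also called 0 members. In controls 2 members had an unadjusted p under 0.05, 60 of the 74 values were below 0 and the median was -0.19. In cKO oocytes 0 members had such a p, 62 values were above 0 and the median was 0.14.

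Most members also fell at maturation in polyA libraries of cKO oocytes. From GV to MII 64 of 74 members fell and 0 rose in polyA libraries, against 26.6% and 18.1% of all genes, with a median of -2.86 (-0.33 over all genes). Genes detected numbered 20149 to 21753 at GV and 16383 to 18025 in eggs. No-feature reads were 10.1% to 14.2% and 5.85% to 6.77% of reads, and mitochondrial genes held 0.224% to 0.59% and 0.63% to 1.29% of gene counts. None of these ranges overlapped, and the part of these measures in the result was not tested. For 47 members every egg lay below every GV oocyte and for 0 every egg lay above, against 9.59% and 7.99% of all genes. Rps24 was at 17.1, 32 and 47.6 CPM in the 15 GV oocytes and at 1.74, 3.48 and 5.6 CPM in the 15 eggs, without overlap (-2.91 ± 0.28, adjusted p = 8.42e-07). Rps15 changed by -5.32 ± 0.51 (adjusted p = 7.68e-07), Rpl26 by -5.09 ± 0.34 (adjusted p = 2.8e-08), Rps20 by -4.88 ± 0.3 (adjusted p = 1.29e-08) and Rpl38 by -4.54 ± 0.38 (adjusted p = 1.95e-07). The members that did not pass were Rpl10, Rpl15, Rpl22, Rpl37a, Rpl4, Rplp2, Rps12, Rps15a, Rps2 and Rps28. Among members with a CPE 9 of 15 fell, and among those without one 55 of 59 did, against 19.8% of 8384 protein-coding genes with a CPE and 40.1% of 6177 without one. In RiboMinus libraries 0 of 75 members passed, against 0.61% of all genes higher and 1.71% lower (2.32% in either direction), with a median of -0.38 (0 over all genes). All eggs lay above all GV oocytes for 1 member and below them for 7, against 4.12% and 4.31% of all genes. In that comparison 14 members had an unadjusted p under 0.05 and DESeq2 called 5. The count of calls rose without female V1167, which leaves 1 female among the cKO eggs.

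The difference between the genotypes in the maturation change was tested as an interaction. In polyA libraries 5 members fell less in cKO oocytes and 0 fell more, against 1.59% and 0.353% of all genes, with a median difference of 0.52 (0.10 over all genes). They were Rps19 (2.27 ± 0.54, adjusted p = 0.0455), Rpl39 (1.59 ± 0.39, adjusted p = 0.0495), Rps9 (1.41 ± 0.31, adjusted p = 0.0279), Rps3 (1.39 ± 0.31, adjusted p = 0.031) and Rpl34 (1.37 ± 0.31, adjusted p = 0.0363). Rpl39, a small protein of the exit tunnel, was at 0.155, 0.787 and 1.97 CPM in control eggs and at 0.999, 2.88 and 4.75 CPM in cKO eggs, and at 49.9 to 76.5 and 31.2 to 101 CPM in GV oocytes. Rps9 was at 3.8, 5.06 and 6.79 CPM and at 5.54, 9.49 and 12.7 CPM in eggs, and at 75.6 to 108 and 48.4 to 98.5 CPM in GV oocytes. The calls sit near the threshold: 0 members passed with DESeq2 size factors, with the compared groups alone, or without any of the females V842, V857, V889 and V896. There were 10 without V888, 1 without V856 or V946, 2 without V841, V853, V897 or V982, and 3 without V951, V983, V993 or V995. In RiboMinus libraries 0 members and 0 genes (0.0%) passed this test, 11 members had an unadjusted p under 0.05 and DESeq2 called 1. The median difference was -0.77, and 0.17 over all genes.

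**Figure D5:**
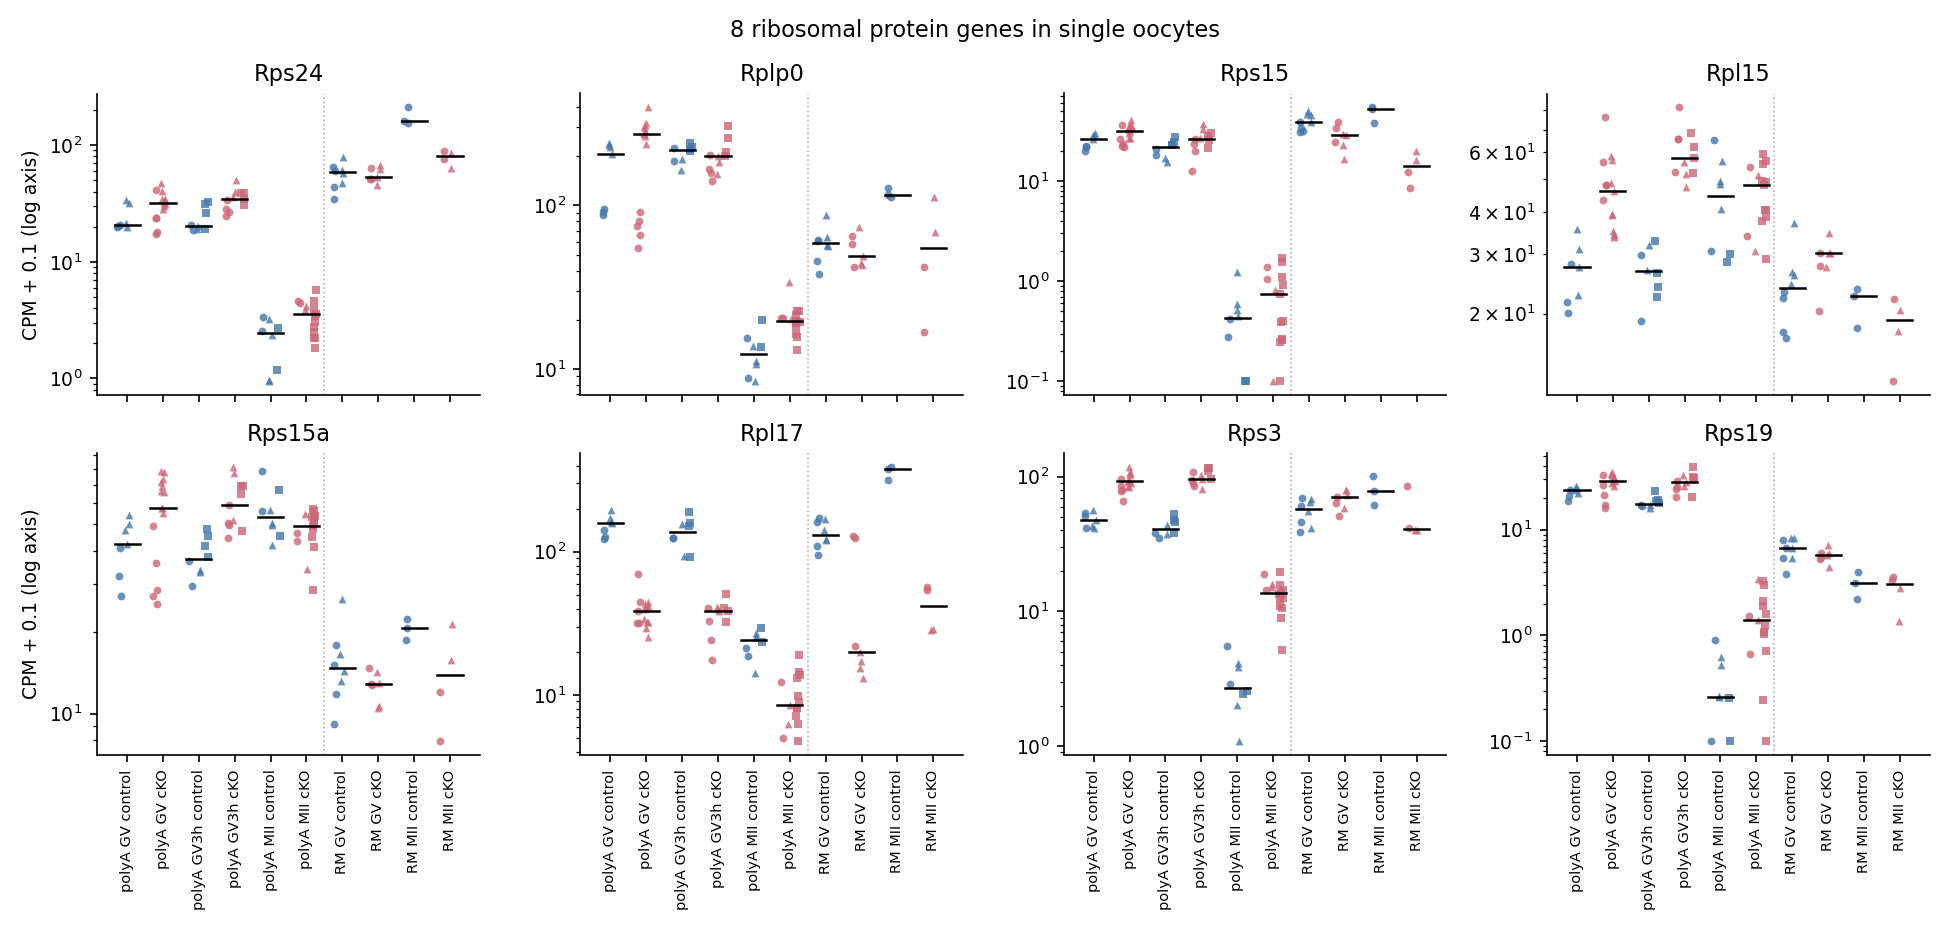
Level of 8 members in every oocyte (y axis, CPM plus 0.1, log scale with its own range in each panel) in the 10 groups (x axis; RM is RiboMinus); each point is 1 oocyte, its shape marks the female within the group, blue is control, red is cKO and black lines are medians. Rps24, Rplp0, Rps15, Rps3 and Rps19 drop in polyA eggs and not to that extent in RiboMinus eggs, Rpl15 and Rps15a do not drop, and Rpl17 is low in cKO oocytes, with 2 RiboMinus GV oocytes at 124 and 128 CPM.

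Most ribosomal protein genes outside the symbol rule also fell at maturation in polyA libraries. Of 13 listed genes, a list that like those below was chosen with earlier results of these data known, 12 were tested in polyA libraries. From GV to MII 10 fell and 1 rose in controls, against 25.7% and 16.8% of all genes, with a median of -3.5. In RiboMinus controls 0 of 11 passed, where 0.00787% of all genes were higher and 0.0% lower, and the median was 1.09. Whether the list differs from the members was not tested. Among them were Rps27a (-4.7 ± 0.48, adjusted p = 8.85e-07), which encodes a ribosomal protein fused to ubiquitin, and Fau (-3.09 ± 0.43, adjusted p = 2.57e-05), fused to a ubiquitin-like protein. Rps27l, a paralog of Rps27 known as a p53 target, rose from 63.5, 104 and 163 CPM to 198, 279 and 458 CPM (1.65 ± 0.24, adjusted p = 3.98e-05). In polyA libraries of cKO eggs 3 of the 12 were higher, against 11.9% of all genes, among them Rps4l (1.68 ± 0.32, adjusted p = 0.00226) and Rpl36al (1.16 ± 0.32, adjusted p = 0.0206). At GV3h 3 were higher, against 12.5% of all genes, among them Rpl10l, an Rpl10 retrogene known from the testis, at 1.28, 1.99 and 5 CPM in controls and 6.92, 18.6 and 37.3 CPM in cKO oocytes (2.87 ± 0.4, adjusted p = 0.000213). It was also higher at GV (2.03 ± 0.47, adjusted p = 0.0198).

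Other mRNAs known to carry a TOP motif were mixed. Of 17 translation genes 8 fell and 4 rose from GV to MII in polyA controls, against 25.7% and 16.8% of all genes, with a median of -0.69. The elongation factor subunits Eef1g (-5.71 ± 0.54, adjusted p = 4.39e-07) and Eef1d (-3.08 ± 0.23, adjusted p = 3.35e-08) and the initiation factor subunit Eif3h (-3.71 ± 0.21, adjusted p = 2.01e-09) fell. Npm1 (1.09 ± 0.18, adjusted p = 0.000133), Nap1l1, Rack1 and Hnrnpa1 rose. Pabpc1, the cytoplasmic poly(A)-binding protein, was higher in cKO polyA libraries at each stage. It was at 3.19, 4.29 and 11.3 CPM in control and 19.5, 34.6 and 88.7 CPM in cKO oocytes at GV, without overlap (2.83 ± 0.51, adjusted p = 0.00654). The values were 3.2 ± 0.43 at GV3h (adjusted p = 0.000164) and 1.83 ± 0.42 at MII (adjusted p = 0.00738), and 1.91 ± 0.49 in RiboMinus eggs (adjusted p = 0.0498). In RiboMinus GV oocytes the value was 2.42 ± 0.38 and did not pass (adjusted p = 0.0803).

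Of 14 genes of the mTOR and Larp pathway 6 were higher and 3 lower in cKO oocytes at GV3h, against 12.5% and 12.7% of all genes, and 2 were higher and 2 lower at MII, against 11.9% and 6.99%. Larp1, which binds the TOP motif, was higher at GV3h (1.53 ± 0.48, adjusted p = 0.0286), as were the translation repressor Eif4ebp1 (2.13 ± 0.54, adjusted p = 0.0095) and Rptor (1.22 ± 0.28, adjusted p = 0.00492), a subunit of mTOR complex 1. Larp4, which protects poly(A) tails, was lower at every stage in polyA libraries. It was at 118, 154 and 168 CPM in control and 53.5, 71.9 and 102 CPM in cKO GV oocytes (-1.09 ± 0.15, adjusted p = 0.00205). The changes were -1.09 ± 0.12 at GV3h and -0.92 ± 0.12 at MII (adjusted p = 5.66e-05 and 0.000154). The ranges of Larp4 in control and cKO oocytes were apart at every stage, with 127 to 159 against 56.3 to 86.4 CPM at GV3h and 199 to 309 against 113 to 163 CPM in eggs. In RiboMinus libraries Larp4 changed by -0.89 ± 0.23 at GV, which did not pass (adjusted p = 0.161), and fell by 1.17 ± 0.28 in eggs (adjusted p = 0.0414).

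The genes of the mitochondrial ribosome, encoded in the nucleus, also mostly fell at maturation in polyA libraries. Of 78 genes 62 fell and 5 rose from GV to MII in controls, against 25.7% and 16.8% of all genes, with a median of -2.06, and 57 fell and 4 rose in cKO oocytes, against 26.6% and 18.1%. In RiboMinus controls 0 passed, where 0.00787% of all genes were higher and 0.0% lower, and the median was 0.61. The difference between library types was called lower for 59 and higher for 2 of the 78 in controls, against 11.9% and 10.9% of all genes, with a median of -2.72. In cKO eggs 20 were higher and 5 lower in polyA libraries, against 11.9% and 6.99% of all genes (median 0.34). In RiboMinus libraries 15 were lower and 0 higher, against 3.69% and 3.61% of all genes (median -0.97). The difference between the mitochondrial and cytosolic families was not tested.

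The members' median profile over the 10 groups was taken after each member's mean log2 CPM was centred. The genes that followed it most closely were Lamtor4, Ndufb7, Fcf1, Ndufb10 and Rdh5. Their Pearson r over the 10 group means was 0.997, 0.997, 0.996, 0.995 and 0.995. These points share library type and depth, so the values only describe the pattern. Of the 74 members in both fits, 32 followed the members' median profile with r above 0.9 and 13 had r below 0.5. The lowest were Rps15a (-0.242) and Rpl15 (-0.237), followed by Rpl37a (0.008), Rps2 (0.01), Rps28 (0.027) and Rpl34 (0.259). The first 4 of these have a CPE and the last 2 have none.

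Many ribosomal protein genes host snoRNA genes in their introns, whose processing is known to use the exosome. A snoRNA gene lies inside 29 of the 75 members and touches an annotated exon in 24 of them. Of the 29, 9 were higher and 2 lower in cKO polyA eggs, with a median of 0.66, and of the 45 tested members without one 12 were higher and 0 lower, with a median of 0.73. Over all genes 11.9% were higher and 6.99% lower. In RiboMinus eggs the medians were -1.07 and -0.61, with 3 and 4 members lower, against 3.69% of all genes. The difference between the classes was not tested.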

How the data were processed

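The deposited values are raw counts per gene and oocyte, 1 file for each library. Per the submitters' processing notes, the tools were cutadapt 2.5, FastQC 0.11.8, STAR 2.7.2a, SAMtools 1.9, HTSeq 0.9.1, R 3.5.1 and DESeq2 1.24.0, with build mm10. The annotation release, the strand setting and the treatment of reads with several positions are not given in the sources used here; the deposited summary line for such reads is 0 in every library. Without a known strand setting, reads of overlapping antisense genes cannot be told apart. This touches many members, among them Rpl15 (Nkiras1), Rps2 (Snhg9), Rpl12 (Lrsam1), Rpl35 (Wdr38 and Arpc5l), Rpl32 (Cand2), Rpl31 (Tbc1d8), Rpl5 (Fam69a), Rpl35a (Gm17106), Rpl3 (Syngr1) and Rps14 (Ndst1). Genes on the same strand overlap Rpl24 (Gm28037), Rpl13 (Gm20388), Rpl13a (Gm45713), Rpl19 (Gm11629), Rpl3 (Gm24204) and Rps10 (RPS10-NUDT3). No spike-in scaling was used here, so changes are relative within a library. The rRNA libraries were not used here.

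Counts were summed per female and tested with edgeR 4.0.16 (R 4.3.3): filterByExpr, TMM, quasi-likelihood F test, two-sided, Benjamini-Hochberg adjustment over all genes tested, called at an adjusted p under 0.05. All groups of a library type shared 1 fit (16 polyA females, 10 residual degrees of freedom; 7 RiboMinus females, 3 residual degrees of freedom). A fit of all 23 females gave the differences between library types. HTSeq summary lines (no feature 5.85% to 14.2%, ambiguous 2.07% to 3.19%) were left out of library sizes. CPM used the sum of counts over the genes that passed the filter, scaled by each oocyte's TMM factor. Shares of gene counts used the unscaled sum over all genes. Intervals and floors (3 counts over a group) cover counting error only. The procedure was tested on simulated data with an equal spread for all genes and few, well-counted genes changed. That setting does not cover members with few counts or comparisons in which many genes changed. Labels give the female of each oocyte but not litters or days, so p-values measure the spread between females.

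The members and gene lists were chosen with earlier results of these data known. Named were up to 5 rises and 5 falls per comparison, members with fixed roles, those among the highest and lowest per length, members called against the direction of the others, listed genes outside the rule, and the 5 most similar genes. The 3′ motif comparison and the choice of windows printed were made after seeing values. Alternatives were DESeq2 1.42.0, its size factors, library totals, no filter, oocytes as replicates, the compared groups alone, each female left out and, chosen after seeing the data, leaving out 1 library.

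Some results for members and listed genes are not reported here.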

Additional observations from a re-analysis of the deposited data

Results flagged for a closer look

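Gaps within groups of 4 to 10 oocytes were examined for 18 measures in 108 sets of values, and 7 sets had 1 oocyte far above the others, about what chance gives (5%). In the polyA control eggs, 4 such values came from female V853: Rplp1 at 22.9 CPM in its 1st egg (next 10.6, median 5.6), Rpl41 at 13.9 CPM in the same egg (next 7.76, median 5.88), Rps6 at 0.991 CPM in its 2nd (next 0.326) and Rps15 at 1.14 CPM in its 3rd (next 0.495). In RiboMinus cKO eggs Rps3 was at 85.7 CPM in the 2nd egg of V1166 and next at 41.3 CPM. In RiboMinus cKO GV oocytes Rps6 was at 1.64 CPM in the oocyte numbered 2 of V1126 and next at 0.806 CPM. In polyA control GV3h oocytes Rps19 was at 23.1 CPM in the 2nd oocyte of V995 and next at 18.9 CPM.

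The maturation change differed between genotypes in polyA libraries for Rps19 (2.27 log2 units), Rpl39 (1.59), Rps9 (1.41), Rps3 (1.39) and Rpl34 (1.37). It differed between library types for 56 members in controls and 42 members in cKO oocytes.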

How the results depend on the processing

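Of 299 recomputed counts of called members, 240 stayed within 1.5 times the reported count and 59 did not. Of 4004 recomputed values of named called genes, 3757 kept direction and call, 247 kept direction only and 0 reversed. No paired analysis was possible because each female gave oocytes to 1 group only. With each oocyte as a replicate the calls were 14 (polyA GV cKO against control), 38 (GV3h), 45 (MII), 4 (RiboMinus GV), 30 (RiboMinus MII), 22 and 14 (RiboMinus maturation, control and cKO), 23 and 10 (genotype by stage, polyA and RiboMinus) and 64 (library by stage, cKO). DESeq2 gave 27 at GV3h, 15 in RiboMinus MII (1 higher), 8 and 5 in RiboMinus maturation, and 8 and 1 for genotype by stage; its size factors gave 0 for polyA genotype by stage. Library totals gave 4 at GV, 32 at GV3h, 3 in RiboMinus MII and 2 for polyA genotype by stage. No filter gave 1 in RiboMinus GV, 16 in RiboMinus MII, 7 and 6 in RiboMinus maturation and 2 for RiboMinus genotype by stage. The compared groups alone gave 0 at GV, 32 at GV3h, 9 at MII, 28 in RiboMinus control maturation and 0 for polyA genotype by stage. Without library V1166_1, chosen after seeing the data, RiboMinus MII had 2.

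Leaving out 1 female at a time gave 1 to 3 calls at GV, 4 to 18 at GV3h, 19 to 24 at MII, 0 to 1 in RiboMinus GV, 0 to 24 in RiboMinus MII, 0 to 15 in RiboMinus cKO maturation and 0 to 10 for polyA genotype by stage. The range was 58 to 65 and 60 to 64 for polyA maturation (control and cKO), 50 to 58 and 32 to 45 for library by stage, and 0 to 0 for RiboMinus control maturation. Library totals moved the median change of all genes from -0.26 to -0.69 in polyA control maturation, where 71 members were then lower and 0 higher, and from -0.33 to -0.86 in cKO. The RiboMinus MII control is 1 female and that fit has 3 residual degrees of freedom, which limits those comparisons. Each RiboMinus fit without a female leaves 1 female in a group, so the spread there comes from the other groups. Members with few counts in polyA eggs have fitted values that depend on the prior count.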

Other observations

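Rpl17 differed between oocytes of 1 female. Of the 3 RiboMinus GV oocytes of cKO female V1126, the oocytes numbered 2 and 3 were at 124 and 128 CPM and the oocyte numbered 4 was at 21.8 CPM, while the 4 oocytes of V1131 were at 19.8, 13, 15.2 and 17.1 CPM. The polyA cKO GV oocytes had female means of 43.2 and 36.4 CPM.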
